A study of Mus musculus with 8 samples.

Results

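Gene expression in the hypothalamus of control mouse pups at postnatal day 19 is described from the 4 vehicle libraries of the 8 in the study. They are 2 from females (vehicle F1 and F2) and 2 from males (vehicle M1 and M2). They were chosen by their labels alone. The pups had received vehicle, without PLX3397, by gavage from day 9 to day 15. PLX3397 is an inhibitor of the receptor CSF1R that is used to remove microglia, and the other 4 libraries of the study, from pups given it, are not used in any comparison. Each library holds RNA of a whole dissected hypothalamus that was depleted of ribosomal RNA, fragmented and copied from random primers, so all cell types contributed. The labels call the tissue brain and the design text calls it hypothalamus. Strain, the composition of the vehicle and the litter of each pup were not given in the labels.

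The hypothalamus is a set of small nuclei around the third ventricle that ties brain activity to hormones, feeding, body temperature, sleep and daily rhythm. Its neurons are known by the peptides they release: vasopressin and oxytocin from the paraventricular and supraoptic nuclei, feeding peptides from the arcuate nucleus, melanin-concentrating hormone and orexin from the lateral area, and vasoactive intestinal peptide from the suprachiasmatic clock. Around weaning age myelin is still being laid down and feeding circuits are still being wired. Levels below are FPKM (fragments per kilobase of exon, scaled to library size), given as the median of the 4 libraries, because vehicle F1 also held pituitary transcripts. In bulk tissue a low level can mean few cells of a type or little RNA per cell, and these cannot be told apart.

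Between 54115300 and 60001808 counts per library were assigned to genes, so a count of 0 allows up to 0.05 to 0.0554 CPM (counts scaled to the library total). Intervals of this kind cover counting error only. Of 55401 listed genes, 14484 (26.1%) had a median FPKM of at least 1, 4656 at least 10 and 288 at least 100. On a log2(FPKM + 0.5) scale, and over genes averaging 0.5 FPKM or more, the libraries correlated with r between 0.964 and 0.974. This is a description, and its lowest values all involve vehicle F1. The median coefficient of variation over the 4 libraries was 14.7% for genes at 1 to 3 FPKM and 4.00% for genes at 100 or more, so differences among abundant genes are the better measured.

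The most abundant transcripts came from the mitochondrial genome, whose protein genes encode parts of the respiratory chain. mt-Co1, a subunit of cytochrome c oxidase, led with 7248 FPKM (7172, 7589, 7011 and 7324 in F1, F2, M1 and M2). mt-Co2 followed with 4222 and mt-Cytb, of complex III, with 4214. Of the 30 most abundant genes, 22 were mitochondrial or copies of mitochondrial genes, and the 30 together held 24.7% of all FPKM. Mitochondrial genes took 4.51 to 4.88% of all counts, and their share differed little between libraries.

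Between these stood 7 pseudogenes in a row on chromosome 1, from 24611535 to 24616197 (mm10), that are copies of mitochondrial genes. Gm29216 was listed at 5466 FPKM, rank 2 of all genes, Gm28661 at 3961 and Gm10925 at 3258. The transcripts of the copies and of the mitochondrial genes were aligned in the GENCODE vM21 annotation. Gm28661 was identical to mt-Co2 over all 681 bases of the copy, and Gm29216 differed from mt-Co1 at 1 of 483 aligned bases. The first 60 bases of the first pair and a 60-base window around the differing base of the second pair are shown, with the differing base in capitals, because they show why a fragment from here has no certain origin.
Gm28661: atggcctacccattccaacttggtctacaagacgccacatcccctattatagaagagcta
mt-Co2: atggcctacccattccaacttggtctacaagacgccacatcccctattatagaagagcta
Gm29216: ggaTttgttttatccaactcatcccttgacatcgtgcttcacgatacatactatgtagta
mt-Co1: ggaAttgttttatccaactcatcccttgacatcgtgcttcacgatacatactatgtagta
The count of each copy was a nearly fixed multiple of its mitochondrial gene's count in the 4 libraries. It was 0.864 to 0.979 for Gm28661 against mt-Co2 and 2.99 to 3.38 for Gm10925 against mt-Atp6. The listed levels of both members of each pair are therefore uncertain.

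Among nuclear protein-coding genes, 12315 of 21764 (56.6%) reached a median of 1 FPKM. The polyubiquitin gene Ubb was the highest with 1037 FPKM (1036, 1057, 1038 and 1017 in F1, F2, M1 and M2). It was followed by Sparcl1, an extracellular matrix protein made by astrocytes, with 928 and by the translation elongation factor Eef1a1 with 751. Cst3, a secreted protease inhibitor, stood at 747 and Nap1l5, an imprinted gene of neuroendocrine tissue, at 722. The cytoskeletal Tuba1a reached 694, the lysosomal Psap 626 and Cpe, the carboxypeptidase that trims peptide hormones, 617. The matrix glycoprotein Sparc (566) and the ribosomal Rplp1 (555) came next. The vasopressin gene Avp was the 24th of all nuclear coding genes. Ubb kept a narrow range, between 1017 and 1057 in the 4 libraries, whereas Avp ran from 251.5 to 556.1.

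The region named by the design text was checked against markers of other brain regions. None of 12 midbrain and hindbrain genes reached a median of 1 FPKM, and Hoxa5, Hoxb3, Hoxb5 and the cerebellar GABA receptor subunit Gabra6 had a count of 0 in all 4 libraries. Of 11 cortical and hippocampal genes 4 reached 1 FPKM, the highest at 5.40, and the cortical factors Tbr1 and Emx1 were at 0.249 and 0.0418 FPKM. Of 11 striatal genes 10 reached 1 FPKM, led by the peptide precursors Penk (52.4) and Tac1 (15.02), which hypothalamic neurons also make. Slc17a7, the vesicular glutamate transporter of cortical neurons, was at 0.436 FPKM against 54.2 for Slc17a6, its counterpart in hypothalamic neurons. Hypothalamic factors were clearly present, with Otp at 15.4 FPKM, Nkx2-1 at 9.14, Fezf1 at 7.49 and Nr5a1 at 5.49. Of 11 thalamic genes 7 reached 1 FPKM, led by the calcium-binding protein Calb2 (123), which hypothalamic neurons also make.

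Vehicle F1 stood apart in genes of the pituitary, the gland below the hypothalamus. Gh, growth hormone, was at 2729 FPKM in F1 and at 0.527, 0.491 and 0.709 in F2, M1 and M2. Prl, prolactin, was at 109 FPKM in F1, at 0 in F2 and M1 and at 0.0769 in M2. Lhb and Fshb, which encode the beta subunits of the gonadotropins, were at 29.2 and 26.4 FPKM in F1 and at a count of 0 in the other 3, and so was Pou1f1, the factor of somatotrope and lactotrope cells (1.08 in F1). Cga, the subunit shared by the glycoprotein hormones, was at 170, 0.873, 1.10 and 7.04 FPKM in F1, F2, M1 and M2. The 18 pituitary genes summed to 3760 FPKM in F1 and to 38.6 to 51.4 in the others. F1 is given separately below for some of the genes in which it differs, and many other levels are given as the median only.

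**Figure D1:**
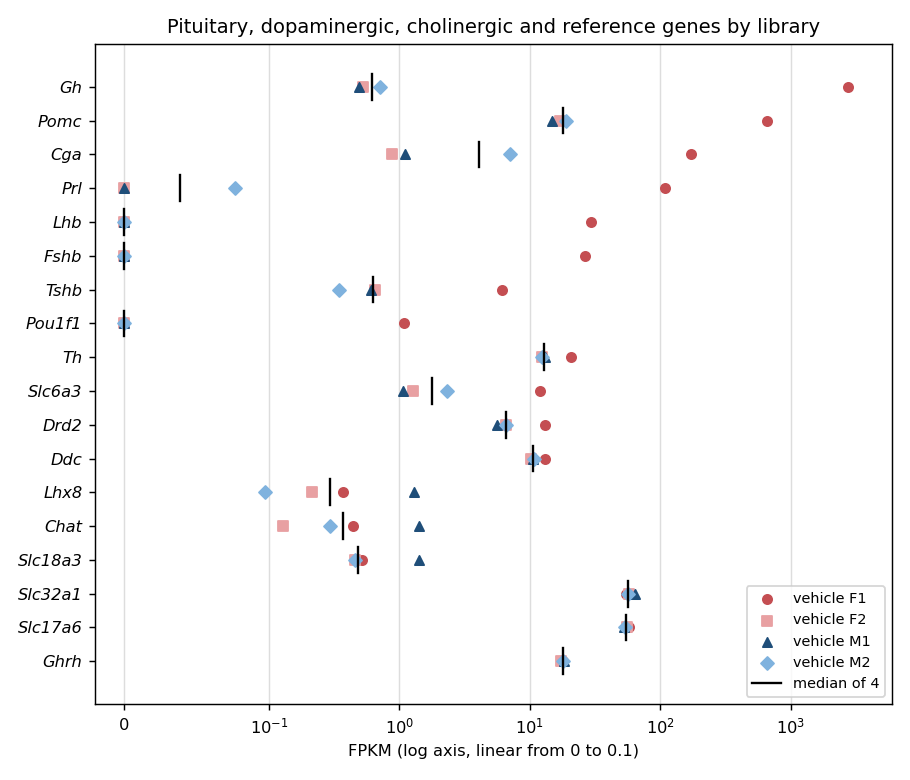
FPKM of 18 genes on a horizontal log axis (linear from 0 to 0.1) in the 4 vehicle libraries, with a bar at the median of the 4. Gh, Prl, Lhb and Fshb are high in F1 only (Gh 2729 against at most 0.709 elsewhere), Th and Slc6a3 are highest in F1, Lhx8, Chat and Slc18a3 are highest in M1, and Slc32a1, Slc17a6 and Ghrh coincide in all 4.

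Peptide precursor genes covered a wide range of levels, from a median of 373 FPKM down to 0. Of 48 precursors, 36 reached a median of 1 FPKM (75%, against 26.1% of all listed genes and 56.6% of nuclear coding genes). The 5 highest, Avp, Pmch, Sst, Npy and Oxt, held 70% of the summed FPKM of the 48. Among the 20 highest, 6 of the 19 pairs of neighbours in the order had ranges that did not overlap, so most neighbours cannot be ordered by these libraries.

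Vasopressin, the antidiuretic hormone, was the first of the peptides. Avp (chromosome 2, 130580620 to 130582554, mm10) was at 251.5, 341.8, 556.1 and 404.4 FPKM in F1, F2, M1 and M2, a median of 373. Oxt, its neighbour on chromosome 2, which encodes oxytocin, was at 80.4, 92.7, 143 and 106 FPKM, a median of 99.6. Both genes were lowest in F1 and highest in M1, and both males lay above both females. The difference did not pass the test between the sexes (edgeR adjusted p = 0.804 for each), and both males lay above both females in 17.6% of all tested genes. The order of the 4 libraries was the same for both genes.

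The coding sequences of the 2 hormones are partly shared, which limits how far their counts can be told apart. Over 297 aligned bases the annotated transcripts were 91.9% identical, and they share an unbroken run of 127 bases (bases 144 to 270 of the Avp and 156 to 282 of the Oxt transcript). The run encodes part of neurophysin, the carrier of either hormone, and is shown because a fragment inside it fits both genes.
Avp and Oxt: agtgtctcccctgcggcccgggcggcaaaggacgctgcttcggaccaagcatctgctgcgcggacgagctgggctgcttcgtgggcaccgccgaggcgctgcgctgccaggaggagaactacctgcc

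The other hormones of the paraventricular nucleus were lower. Trh, thyrotropin-releasing hormone, was at 71.8 FPKM (70.3, 73.3, 84.4 and 66.3 in F1, F2, M1 and M2). Crh, corticotropin-releasing hormone, the head of the stress axis, was at 1.66 FPKM (1.25, 2.11, 1.73 and 1.58). Their ranges were far apart: the lowest library for Trh lay above 60 FPKM and the highest for Crh was 2.11.

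Arcuate peptides were led by Sst and Npy. Sst, somatostatin, which inhibits growth hormone release, was at 183 FPKM (169, 178, 187 and 190 in F1, F2, M1 and M2) and Ghrh, its stimulatory counterpart, at 17.9 (between 17.2 and 18.3 in the 4 libraries). Sst is also made in many nuclei outside the arcuate. Npy and Agrp are co-released by the neurons that drive feeding. Npy was at 115 FPKM (119, 142, 102 and 111) and Agrp at 10.03 (8.73, 11.96, 10.7 and 9.32). F2 was the highest library for both genes.

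Pomc and Cartpt mark the neurons that restrain feeding. Cartpt was at 31.2 FPKM (29.4 to 32.2). Pomc (chromosome 12, 3954951 to 3960618) was at 16.9, 14.8 and 18.8 FPKM in F2, M1 and M2 and at 650.5 in F1, the library with pituitary transcripts, where corticotrope and melanotrope cells also make it. The median of 17.8 was therefore close to the 3 other libraries, whereas the mean of all 4 was 175. Tac2 (21.3 FPKM) and Pdyn (17.5), which are expressed with Kiss1 in the neurons that pace the reproductive axis, were steady, with ranges of 20.7 to 23.7 and 16.6 to 18.1. Kiss1 itself was near the limit of detection, at 0, 0.792, 0 and 0.577 FPKM in F1, F2, M1 and M2. Gal, galanin, was at 31.2 FPKM and Pnoc, the nociceptin precursor, at 8.30.

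In the lateral hypothalamus, Pmch, the precursor of melanin-concentrating hormone, was the second of all peptides with a narrow range. It was at 288, 272, 285 and 260 FPKM in F1, F2, M1 and M2, a median of 279. Hcrt, the orexin precursor that sustains wakefulness, was at 43.0 FPKM and varied more, with 44.2, 41.7, 54.3 and 26.2. M2 was the lowest library for both, and its Hcrt lay well under the other 3. Nts, neurotensin, was at 16.2 FPKM (12.5 to 17.4), Npvf, the precursor of the RFamide-related peptides of the dorsomedial nucleus, at 6.82 and Qrfp, an RFamide peptide of the same region, at 2.24.

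Suprachiasmatic peptides were low. Grp, gastrin-releasing peptide, was at 3.62 FPKM (2.90 to 4.01), Vip, vasoactive intestinal peptide, at 2.81 (2.63 to 3.26) and Nms, neuromedin S, at 1.11 (0.521 to 1.37). Prok2, an output signal of the clock, was at 0.299. All 4 reached at most 4.01 FPKM in any library.

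Among peptides made widely in the brain, Penk, proenkephalin, was at 52.4 FPKM (48.2 to 54.6), Adcyap1, the precursor of PACAP, at 28.8 (25.9 to 33.4) and Tac1, substance P, at 15.02 (13.6 to 15.8). Cck, cholecystokinin, was at 7.61, 14.9, 10.2 and 8.22 FPKM in F1, F2, M1 and M2, with F2 the highest. Gnrh1, gonadotropin-releasing hormone, which comes from scattered neurons near the front of the hypothalamus, varied widely: it was at 1.29, 3.48, 2.86 and 0.513 FPKM. Galp had a count of 0 in all 4 libraries.

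**Figure D2:**
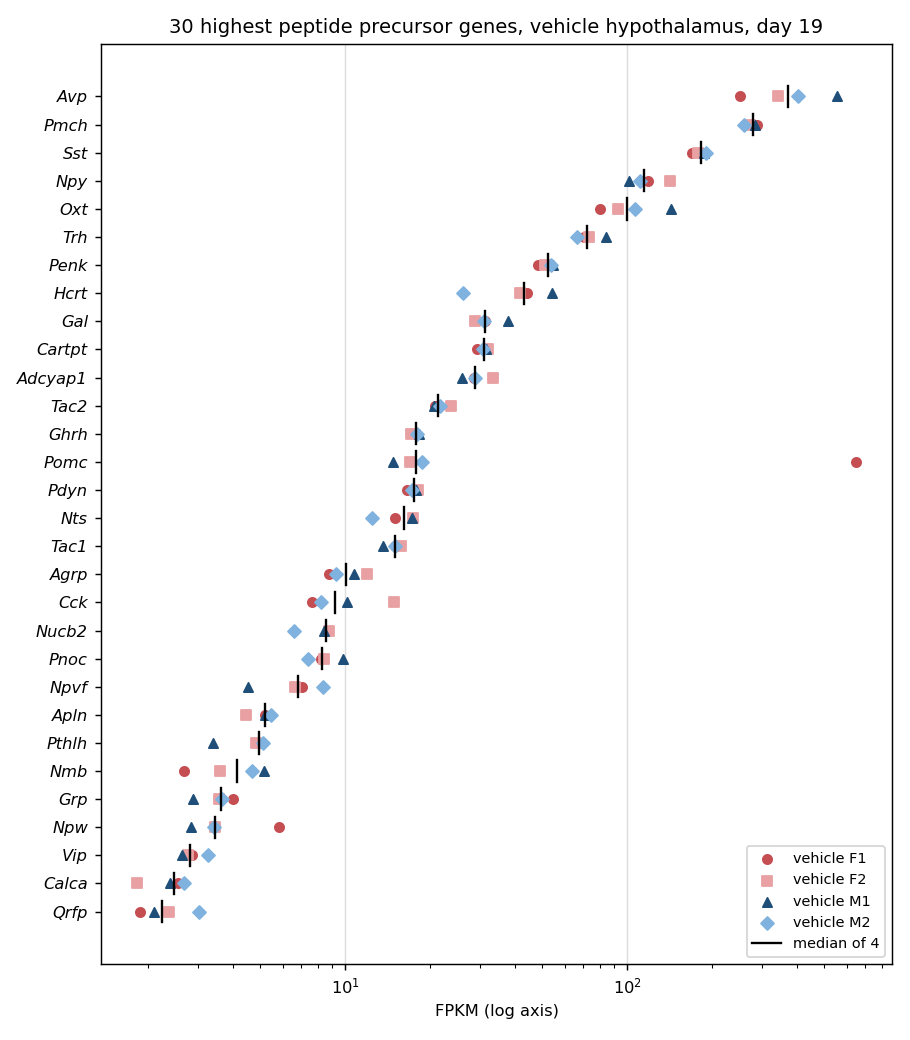
The 30 highest peptide precursor genes, with FPKM on a horizontal log axis in each vehicle library and a bar at the median of the 4. Avp is the first at a median of 373, the points of most genes lie close together, and the separate point for Pomc is F1 at 650.5.

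Promoters of these genes were read from RefSeq (GRCm38.p6), which held 38 of the 48. The TATA box is a short element that fixes where transcription starts. The letters TATAAA, searched on the gene's own strand in the 50 bases before the start, were found in 8 of the 38 (21.0%), against 3.15% of all 27025 genes with a promoter and 1.67% of those at 1 FPKM or more. TGACGTCA, the palindromic element bound by the factor CREB, was searched in the 250 bases before the start. It was found in 3 of the 38, against 1.77% of all genes. Of the 10 highest peptides with a promoter, 2 held TATAAA, Pmch and Hcrt, and the much lower Vip also held it. The 60 bases just before the start of 5 genes are shown, with either element in capitals.
Pmch: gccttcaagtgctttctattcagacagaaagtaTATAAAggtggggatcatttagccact
Sst: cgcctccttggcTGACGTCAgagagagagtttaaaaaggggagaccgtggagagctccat
Hcrt: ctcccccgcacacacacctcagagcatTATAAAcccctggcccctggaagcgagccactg
Pomc: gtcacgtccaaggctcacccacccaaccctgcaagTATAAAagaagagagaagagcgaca
Vip: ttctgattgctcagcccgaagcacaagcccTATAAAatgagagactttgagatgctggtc
They lie at chr10:88091012-88091071 on the plus strand (Pmch), chr16:23890845-23890904 on the minus strand (Sst), chr11:100762932-100762991 on the minus strand (Hcrt), chr12:3954885-3954944 on the plus strand (Pomc) and chr10:5639158-5639217 on the plus strand (Vip). A match of letters is a description and no evidence of binding.

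The machinery that cuts, modifies and stores peptides was abundant. All 17 genes of peptide processing reached 1 FPKM, and 15 reached 10. Cpe was at 617 FPKM (594 to 649) and Scg2, secretogranin II of the dense-core granule, at 372 (353 to 424). Pcsk1n, the inhibitor of prohormone convertase 1, was at 175 and the convertase Pcsk1 itself at 12.1. The granins Chga and Chgb were at 114 and 126 FPKM. In F1 they were at 144 and 195 FPKM, above the 105 to 120 and 122 to 127 of the other 3. Vgf, the precursor of several secreted peptides, was even across libraries (96.3 to 102).

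Receptors for these peptides were mostly less abundant than their ligands. In 20 of 29 ligands set against the summed FPKM of their receptors, the ligand was higher in all 4 libraries, in 12 of them by over 5-fold in each, and in 7 the receptors were higher in all 4. Avp exceeded Avpr1a and Avpr1b together by 97.8 to 293 times, Oxt exceeded Oxtr by 38.5 to 76.1 times, and Pmch exceeded Mchr1 by 39.3 to 48.3 times. The reverse held for Adcyap1, at 0.407 to 0.600 times its receptor Adcyap1r1, and for Pnoc, at 0.255 to 0.302 times Oprl1. Nts was also below the sum of Ntsr1 and Ntsr2, as was Crh below the sum of its receptors. Ntsr2 is largely an astrocyte gene in brain.

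Among receptors of feeding signals, 20 of 26 reached 1 FPKM. The natriuretic peptide receptor Npr2 (20.7 FPKM) and the ciliary neurotrophic factor receptor Cntfr (20.4) were the highest. The calcitonin receptor Calcr was at 10.4 FPKM (8.14, 10.1, 11.8 and 10.7 in F1, F2, M1 and M2). Npy2r, which damps NPY release, was at 7.23 (7.16 to 7.49) and Npy1r at 4.40. The melanocortin receptors that read POMC and AgRP peptides were low, Mc3r at 3.70 FPKM (3.50 to 3.82) and Mc4r at 0.886 (0.653 to 1.29). The ranges of Mc3r and Mc4r did not overlap. The insulin receptor Insr was at 2.74, the GLP-1 receptor Glp1r at 2.46, the ghrelin receptor Ghsr at 1.75 and the leptin receptor Lepr at 0.920 (0.833 to 0.975). Gfral, the hindbrain receptor of GDF15, had a count of 0 in all 4 libraries.

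Receptors of other peptides had 24 of 37 members at 1 FPKM or more. Adcyap1r1, the receptor of PACAP, led with 59.6 FPKM (54.0, 55.6, 63.8 and 63.6 in F1, F2, M1 and M2). Ntsr2 (30.6) and the nociceptin receptor Oprl1 (30.5) followed. The somatostatin receptors Sstr1 and Sstr2 were at 9.14 and 7.42 FPKM, Avpr1a at 1.98, Oxtr at 1.98 and the kisspeptin receptor Kiss1r at 2.23. The delta and kappa opioid receptors Oprd1 and Oprk1 were at 2.08 and 2.20 FPKM and the mu receptor Oprm1 at 0.111. Prlr, the prolactin receptor, was at 1.54, 1.42, 0.716 and 0.614 FPKM in F1, F2, M1 and M2, with both females above both males (edgeR adjusted p = 0.156). DESeq2 called Prlr. The releasing-hormone receptors Ghrhr and Gnrhr, which sit on pituitary cells, were at 3.06 and 1.59 FPKM in F1 and at 0.0302 or less in the other libraries.

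Of the nuclear receptors, 20 of 24 reached 1 FPKM. Thra, thyroid hormone receptor alpha, was the highest at 123 FPKM (119, 123, 124 and 123 in F1, F2, M1 and M2), against 2.64 for Thrb. Thrb was at 2.60 to 2.75 FPKM in F1, F2 and M1 and at 0.614 in M2, and it was singled out after its values were seen. The clock repressors Nr1d1 and Nr1d2 were at 22.9 and 16.6 FPKM and the glucocorticoid receptor Nr3c1 at 9.90 (8.80 to 10.1). Sex steroid receptors were low: the progesterone receptor Pgr was at 2.03, Esr1 at 0.494 (0.351 to 0.564) and Esr2 at 0.199. Per length of its principal transcript (6339 bases, against 13661 of merged exons) the Esr1 level was 1.07 on the same scale. The counts cover all merged exons, so 1.07 can be too high.

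Ionotropic and metabotropic glutamate receptors had 24 of 25 members at 1 FPKM or more. The AMPA receptor subunit Gria1 was at 67.0 FPKM (61.4 to 68.9) and the obligatory NMDA subunit Grin1 at 47.9 (45.3 to 50.3). Grin2d was at 9.79 and Grin2a, the subunit that rises as synapses mature, at 1.53. Among 21 GABA and glycine receptor genes, 19 reached 1 FPKM. The metabotropic subunits Gabbr1 and Gabbr2 were at 95.4 (92.6 to 100.0) and 33.9. Gabrq and Gabre, subunits found mainly in hypothalamus and brainstem, were at 26.04 and 18.1. Glrb, the beta subunit of the glycine receptor, was at 31.4, 33.0, 19.4 and 18.5 FPKM in F1, F2, M1 and M2, with the sexes apart (log2 difference, females against males, 0.76 ± 0.06 SE, edgeR adjusted p = 0.0802). DESeq2 called Glrb.

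For monoamines, the histamine receptor Hrh3 was the highest at 17.9 FPKM (17.1 to 21.2), ahead of Htr2c at 9.41 (9.12 to 9.80), the serotonin receptor through which feeding is restrained, and Adra2a at 9.23. The cannabinoid receptor Cnr1 split the libraries, with 5.08 and 4.46 FPKM in F1 and M2 and 15.1 and 15.6 in F2 and M1. Its coefficient of variation was 60.8%, and no other listed gene overlaps it. Drd2 was at 13.1 FPKM in F1 and 5.61 to 6.55 in the others.

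**Figure D3:**
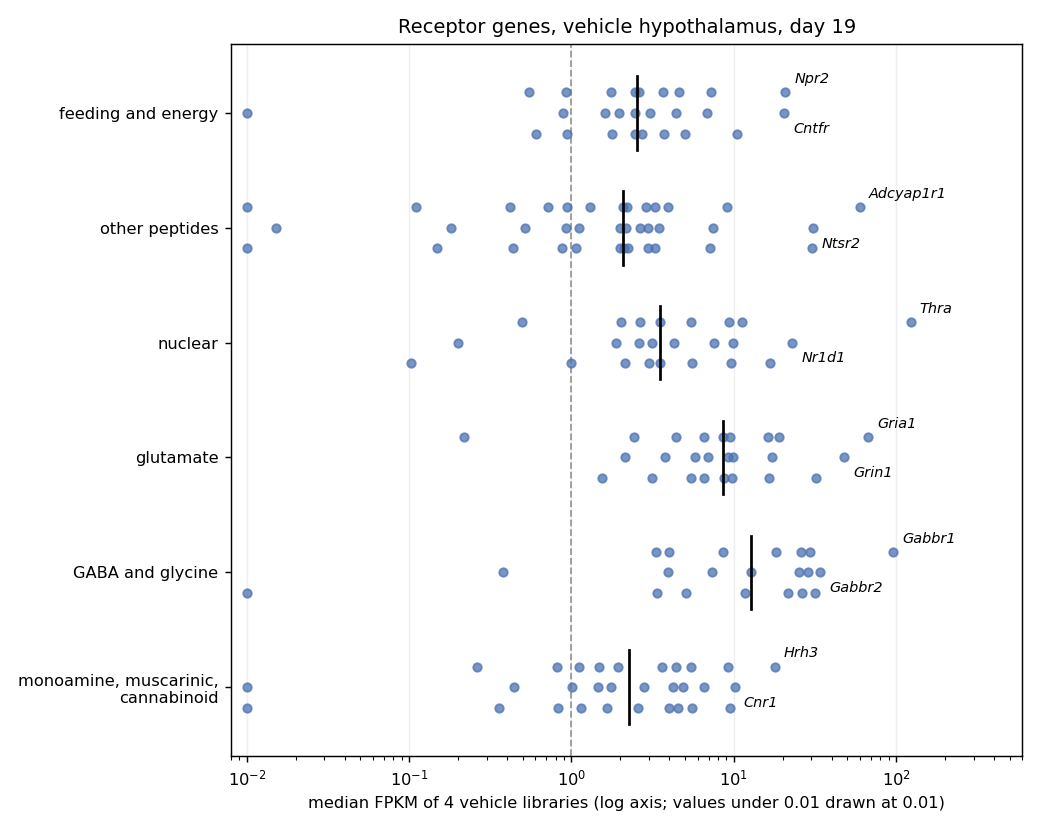
Each point is the median FPKM over the 4 vehicle libraries of a receptor gene, on a log axis, for 6 families; black bars are family medians, the dashed line is 1 FPKM and values under 0.01 are drawn at 0.01. Glutamate and GABA receptors have the highest family medians, 8.54 and 12.8, and Thra (123) is the highest single gene.

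Markers of fast transmitters were balanced. The GABA genes Slc32a1 (vesicular transporter), Gad2 and Gad1 (synthesis) were at 56.7, 56.7 and 33.8 FPKM, and the glutamate transporter Slc17a6 at 54.2. Slc32a1 was at 54.4, 57.3, 63.6 and 56.2 FPKM in F1, F2, M1 and M2 and Slc17a6 at 57.7, 55.1, 52.5 and 53.2, so their ranges overlapped. Hdc, which makes histamine in the tuberomammillary nucleus, was at 14.9 FPKM (12.2 to 15.5). Th, the rate-limiting enzyme of dopamine synthesis, was at 12.8. Genes of serotonin and noradrenaline neurons were near 0, with Tph2 at 0.0455, Slc6a4 at 0.00907 and Dbh at 0.0105 FPKM.

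Region genes also differed between single libraries. In F1, Th was at 20.7 FPKM against 12.3 to 13.1 in the others, the dopamine transporter Slc6a3 at 11.9 against 1.07 to 2.30, and Ddc at 13.1 against 10.3 to 10.7. The midbrain factor En1 was at 0.282 FPKM in F1 and at 0.0462 to 0.107 in the others, and Lmx1b, a factor of dopamine and mammillary neurons, at 1.85 against 0.869 to 1.26. In M1 the cholinergic genes Chat and Slc18a3 were at 1.41 and 1.40 FPKM, against 0.128 to 0.444 and 0.453 to 0.513 in the others, and Lhx8, a factor of basal forebrain cholinergic neurons, at 1.29 against 0.0975 to 0.370. Slc6a3, Chat and Slc18a3 were named after their values were seen. The part of tissue boundaries in these differences was not tested.

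Transcription factors that define hypothalamic nuclei were expressed at a few FPKM. Of 14 arcuate factors 13 reached 1 FPKM: Otp, needed for several peptide lineages, was at 15.4 (14.5 to 16.7), Nkx2-1 at 9.14 (8.08 to 11.1), Isl1 at 6.60, Bsx, a regulator of Agrp, at 5.12 and Tbx3 at 2.05. In the ventromedial list Fezf1 was at 7.49 (7.31 to 8.85), Nr5a1, the factor whose loss disrupts that nucleus, at 5.49 (4.545 to 6.397) and Nkx2-2 at 5.08. Paraventricular factors were led by Arnt2 at 39.3 (37.7 to 40.0), the broadly expressed partner of Sim1, which was itself at 1.48 (1.33 to 1.81). All 7 suprachiasmatic factors reached 1 FPKM, among them Six3 (3.67), Lhx1 (3.25), Six6 (2.87) and Vax1 (2.66). Mammillary and lateral factors ran lower, with 10 of 17 at 1 FPKM or more, Foxb1 (6.97) the highest, Lhx5 at 3.91 and Lhx9 near the bottom at 0.225.

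Among broadly neuronal factors the imprinted zinc-finger gene Peg3 was the highest at 121 FPKM (121, 120, 124 and 94.0 in F1, F2, M1 and M2). Mef2d (34.02) and Camta1 (25.2) followed. Sox11 and Neurod1, which mark newly born neurons, were at 2.44 and 0.742. Of the paraventricular list, Pou3f1 was at 0.851 and 0.771 FPKM in F1 and F2 and at 2.31 and 2.56 in M1 and M2. It separated the sexes without passing the edgeR test (edgeR adjusted p = 0.152), and DESeq2 called it. Rorb, of the suprachiasmatic list, was high in F2 and M2 (2.72 and 3.03) and low in F1 and M1 (1.05 and 0.671).

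**Figure D4:**
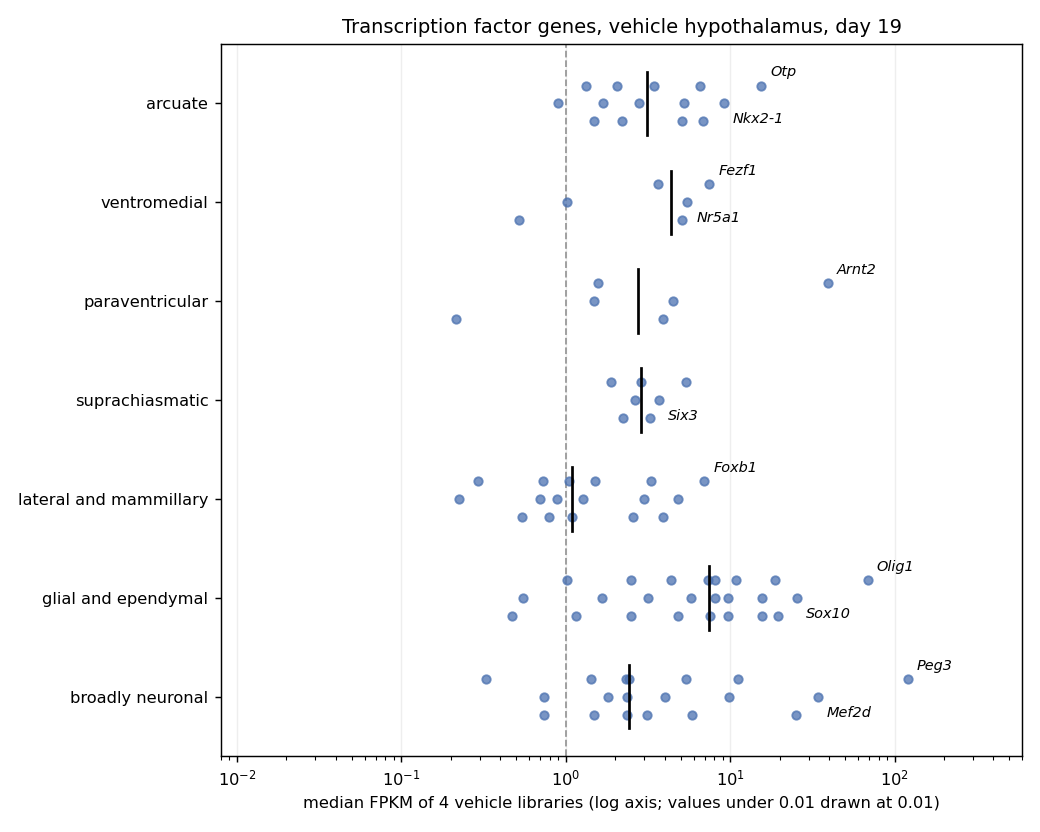
Each point is the median FPKM over the 4 vehicle libraries of a transcription factor gene, on a log axis, for 7 lists; black bars are list medians and the dashed line is 1 FPKM. Most factors of single nuclei lie between 1 and 10 FPKM, Arnt2 (39.3) is the highest of the nuclear lists, Olig1 (68.8) of the glial list and Peg3 (121) of the neuronal list.

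Clock genes were present in every library. Cry2 was at 16.9, 18.8, 17.05 and 17.6 FPKM in F1, F2, M1 and M2, Dbp at 9.71, 12.1, 12.01 and 11.2 and Per2 at 7.45, 6.39, 6.10 and 5.65. Per1 was at 16.8, 16.6, 13.4 and 11.6 FPKM, with both females above both males (edgeR adjusted p = 0.561); DESeq2 called it. The immediate early gene Fos was at 19.99, 19.4, 16.6 and 6.07 FPKM in F1, F2, M1 and M2. Egr1 was at 16.4, 13.8, 16.2 and 7.35, and Junb at 11.6, 12.7, 10.3 and 5.61. Nr4a1 (11.5, 12.96, 10.97 and 5.75) and Fosb (1.34, 1.14, 0.700 and 0.231) had the same low library. M2 was thus the lowest library for these 5 activity-regulated genes, which are not all such genes. For Arc, another of them, the log2 difference, females against males, was 0.04 ± 0.12 SE. For the 5 it was 0.36 (Egr1) to 1.40 (Fosb), with edgeR adjusted p of 0.849 to 0.899. The male average holds M2, so these differences cannot separate sex from that library. The Arc difference does not show which library was lowest.

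Astrocyte genes were among the most abundant nuclear transcripts, with all 19 at 10 FPKM or more. After Sparcl1 came Apoe, the lipid carrier, at 444 (393, 438, 450 and 526 in F1, F2, M1 and M2), glutamine synthetase Glul at 231, Agt, angiotensinogen, at 191, and the glutamate transporter Slc1a2 at 93.6. Gfap, the filament of fibrous astrocytes, was at 60.8, 70.2, 94.5 and 94.3 FPKM. Aqp4, the water channel, was at 21.6 and Aldh1l1 at 11.6.

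Genes of myelin were high, and their median coefficient of variation was 19.9%, against 8.13% for astrocyte genes. Mobp, a protein of compact myelin, was at 144, 145, 196 and 209 FPKM in F1, F2, M1 and M2, Cnp at 144, 140, 182 and 203 and Mog, a late myelin protein, at 56.1, 53.8, 78.6 and 84.6. Both males lay above both females in each. Mbp, myelin basic protein, was listed at 117 FPKM (95.3 to 142), but the FPKM divide by 8469 bases of merged exons, which also hold other transcripts of the locus. Per its principal transcript of 638 bases the same counts gave 1547, which would place Mbp above every nuclear coding gene in the ranking by deposited FPKM. Mobp moved in the same way, from 171 to 761. The counts behind both values cover all merged exons, so both can be too high. The other genes in that ranking were not rescaled. Precursor genes were also present, with Gpr17, a receptor of cells about to differentiate, at 63.5 FPKM (55.7 to 71.4), Pdgfra at 10.2, Cspg4 at 3.25 and Enpp6, of newly formed oligodendrocytes, at 6.33. The factors Olig1 (68.8), Sox10 (25.4), Olig2 (15.6) and Myrf (9.65) completed the lineage.

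Microglia, the cells that PLX3397 targets, were present in all 4 libraries. Of 25 microglial genes 23 reached 1 FPKM. Ctss, a cathepsin, was at 23.7 FPKM, C1qa of the complement system at 20.7 (19.8 to 21.4), and Csf1r, the receptor on which these cells depend, at 12.2 (11.7, 12.3, 12.1 and 12.9 in F1, F2, M1 and M2). P2ry12 was at 5.28 FPKM in F1 and 7.26 to 7.53 in the others, Tmem119 at 5.03 and Cx3cr1 at 1.04. Cst3 (747), though rich in microglia, is also made by astrocytes. Of 9 genes of border macrophages only Stab1 reached 1 FPKM (1.62), and Mrc1 was at 0.956.

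Of the vascular genes, all 15 endothelial genes reached 1 FPKM, led by Bsg (196) and the tight junction gene Cldn5 (16.2) among the more specific ones. The pericyte genes Vtn (29.96) and Rgs5 (15.5) and the fibroblast and meningeal genes Ptgds (441) and Mgp (27.4) were also present. Ptgds, prostaglandin D synthase, had a wide range, with 309, 394, 488 and 672 FPKM in F1, F2, M1 and M2. Globin transcripts, from red blood cells, had a wider range still: Hbb-bs was at 12.95, 35.0, 76.0 and 81.4 FPKM.

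Cells that line the third ventricle could be followed as well. The ependymal cilia genes Foxj1 (7.31), Rsph1 (6.05) and Ccdc153 (4.08) were at a few FPKM. Of the tanycyte genes, which sense and transport signals between ventricle and blood, 16 of 20 reached 1 FPKM. The thyroid hormone transporter Slco1c1 was at 5.64 FPKM, the activating deiodinase Dio2 at 2.74 (2.28 to 4.61), and the inactivating Dio3 at 0.372. Rax, a defining factor of tanycytes, was at 0.472 (0.356 to 0.793), and at 1.66 per length of its principal transcript. Ttr, which is massively expressed by choroid plexus, was at only 1.86 FPKM (0.889 to 3.30).

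Perineuronal net genes had 9 of 12 members at 1 FPKM or more. The lecticans Bcan and Ncan were at 82.3 (73.4 to 85.6) and 24.1 FPKM, and Tnr, which crosslinks them, at 23.3. The link proteins Hapln4 and Hapln1 were at 16.6 and 1.496. Acan, the lectican that defines classical nets, was at 0.713 FPKM (0.733, 0.693, 0.649 and 0.743 in F1, F2, M1 and M2), and the hyaluronan synthases Has3 and Has2 at 0.771 and 0.158. The range of Acan was narrow although its level was low.

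All 24 imprinted genes reached 1 FPKM, and 17 reached 10. After Nap1l5 came the noncoding Meg3 (366), Snrpn (305), Gnas (152), Impact (131), Peg3 (121) and Ndn (116). Cell cycle genes were low, with 3 of 12 at 1 FPKM or more. Mki67, present in dividing cells, was at 0.450 FPKM (0.200 to 0.551) and Top2a at 0.390, while Pcna, which also serves DNA repair, was at 10.9.

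The sexes were then compared within the vehicle group, the only contrast the labels allow there. With 2 females and 2 males, edgeR's quasi-likelihood test called 13 of 16995 genes at an adjusted p under 0.05 (0.0765%), 5 higher in females (0.0294%) and 8 higher in males (0.0471%), and 987 genes had an unadjusted p under 0.05. Xist, the RNA that silences the second X chromosome, was at 494.5 and 425.8 CPM in F1 and F2 and at 0.721 and 0.300 in M1 and M2 (edgeR adjusted p = 0.0404). Ddx3y, Eif2s3y, Uty and Kdm5d, which lie on the Y chromosome, were at 13.2 to 83.5 CPM in males and at 0.0854 or less in females. All 4 libraries thus matched their sex labels. Outside the sex chromosomes, the phospholipid flippase Atp8a1 (log2 difference, females against males, 0.99 ± 0.05 SE), the ubiquitin-conjugating enzyme Ube2l3 (1.04 ± 0.06) and the recycling endosome GTPase Rab11b (1.14 ± 0.07) were higher in females, with edgeR adjusted p of 0.0404 to 0.0497. The zinc transporter Slc39a9 (−1.76 ± 0.08), Lrrc61 (−2.16 ± 0.10) and the cofilin phosphatase Ssh2 (−1.66 ± 0.10) were higher in males. None of these 6 was called in any fit that left out a library, whereas Xist and the 4 Y-linked genes were called in 2 of 4 such fits. Without vehicle M1, or without vehicle M2, 0 genes were called (edgeR; 936 and 842 genes at an unadjusted p under 0.05); without F1 there were 15 and without F2 27. Because nothing in the labels ties libraries to litters, these p-values measure the spread between these libraries only.

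The remaining 2 calls were both entries of Nnt. Nnt, a mitochondrial transhydrogenase, has these 2 overlapping entries on chromosome 13, one higher in each sex. The entry ENSMUSG00000025453 was higher in females (13.2 and 13.8 CPM against 1.59 and 1.35), and ENSMUSG00000116207 was at a count of 0 in both females and at 13.1 and 13.2 CPM in the males. The sum of both entries was 13.5 CPM in females and 14.6 in males. The cause of the opposite differences in the 2 entries was not tested.

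Genes of 4 glial lists were higher in the males in count, though edgeR called 0 of them. Across all tested genes, both males lay above both females in 17.6% and both females above both males in 19.1%. Among 21 oligodendrocyte genes, both males were higher in 20, and the median log2 difference, females against males, was −0.48, against 0.01 over all genes. Of the 21, 18 had an unadjusted p under 0.05 in edgeR. After adjustment edgeR and limma-trend called 0, and DESeq2 called 12. Over all 16995 tested genes, 987 had an unadjusted p under 0.05 in edgeR, which called 13 (0.0765%). Limma-trend called 9 of the 16995 and DESeq2 248. At such rates 0 calls by edgeR or limma-trend in a short list say little. The smallest edgeR adjusted p was 0.143, for Ugt8a (31.3, 30.6, 43.5 and 46.1 FPKM in F1, F2, M1 and M2), an enzyme of myelin lipid synthesis. Both males were higher in 10 of 13 precursor genes (median −0.22), 13 of 19 astrocyte genes (−0.17), 7 of 10 ependymal genes (−0.32) and 9 of 15 endothelial genes (−0.12). In these 4 lists 7, 7, 3 and 5 genes had an unadjusted p under 0.05, edgeR called 0, and DESeq2 called 4, 2, 1 and 2. Both males were higher in 5 of 24 microglial genes (−0.03), 2 of 19 tanycyte genes (0.21) and 1 of 21 pan-neuronal genes (0.04), and both females were higher in 7 of the 19 tanycyte genes. With any library left out, 20 or 21 of the 21 oligodendrocyte genes had every remaining male above every remaining female, where 31.6 to 34.7% of all genes did. A gene with both males above both females keeps that order when a library is left out. The number could therefore not fall, and this is no test of it. Both females lay above both males in 10 of 17 genes of peptide processing (0.12) and 9 of 21 pan-neuronal genes. In these 2 lists 3 and 0 genes had an unadjusted p under 0.05, and both edgeR and DESeq2 called 0.

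Other lists moved with this order of libraries. The 7 red blood cell genes summed to 38.1, 108, 232 and 235 FPKM in F1, F2, M1 and M2, and the 12 meningeal and fibroblast genes to 383, 472, 584 and 774. Ptgds carried most of the latter sum, and the other 11 genes summed to 73.5, 77.8, 96.5 and 102 FPKM. The 21 oligodendrocyte genes summed to 1409, 1423, 1870 and 2063, and the 21 pan-neuronal genes to 2748, 2801, 2726 and 2710. The part of blood content, dissection or cell makeup in the differences was not tested.

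**Figure D5:**
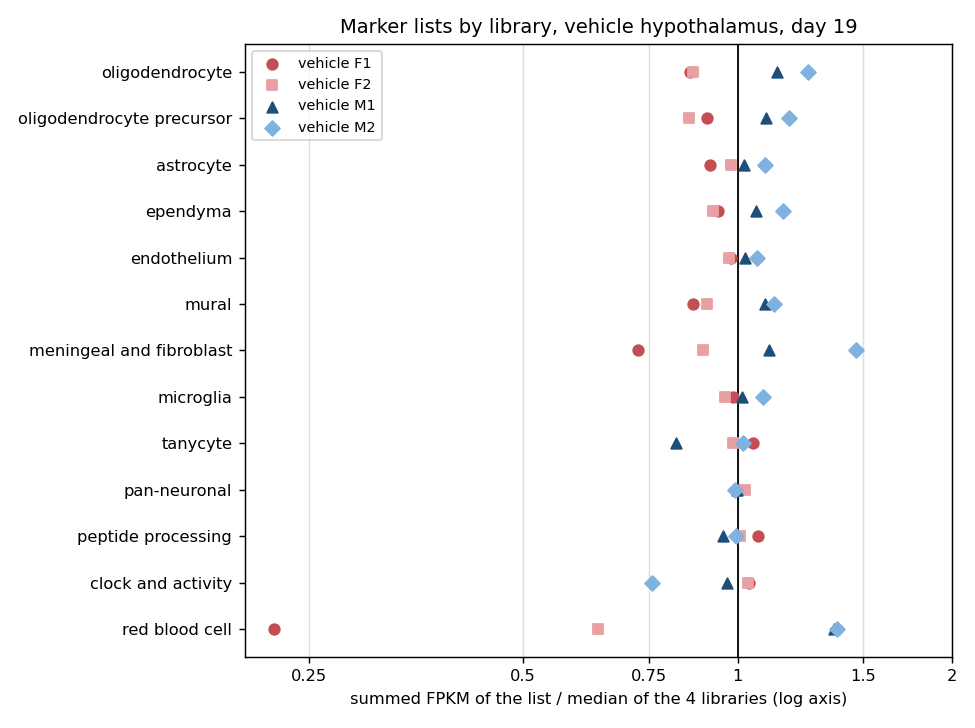
The summed FPKM of 13 marker lists in each vehicle library, divided by the median of the 4 libraries, on a log axis. The 2 males (blue) lie above the 2 females (red) for oligodendrocyte, precursor, astrocyte, ependymal, vascular, microglial and red blood cell genes. Cst3 (median 747) makes up most of the microglial sum. By gene, both males were higher in 5 of 24 microglial genes (20.8%, against 17.6% of all tested genes). The pan-neuronal list stays near 1 (0.990 to 1.02), and M2 is lowest (0.757) for clock and activity genes.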

How the data were processed

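RNA sequencing of 4 vehicle hypothalami was analysed, 2 from each sex. Per the file headers, the deposited table gives whole-number counts per gene and the authors' FPKM. Their notes name bcl2fastq 2.0, HISAT2, StringTie, DESeq2, limma and mm10, without roles; for the counting tool, strand setting and annotation release nothing was found in the sources used here. A count of 0 is deposited as FPKM 0.0001 and was read as 0. The deposited FPKM matched counts divided by merged exon length in GENCODE vM21 and by a library total 1.14 times the summed counts; this scales every gene alike. Long merged exons lower a gene's FPKM.

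Levels are medians over the 4 libraries. Females and males were compared on the counts with edgeR 4.0.16 (R 4.3.3; quasi-likelihood, TMM, two-sided, Benjamini-Hochberg, threshold 0.05) over the 16995 genes whose mean FPKM reached 0.5. Standard errors are the absolute log2 fold change over the square root of F. The test was checked on simulated counts. Total counts were 57888914, 58529790, 54115300 and 60001808 in F1, F2, M1 and M2. All 8 libraries' columns were matched to their labels, and 4 were used.

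Named genes followed a written rule: the 30 highest genes, all and nuclear coding; up to 12 members of each of 43 lists (the 10 highest, 3 lowest and core members of longer ones); the genes that stood apart in 1 library; and all sex calls up to 10, otherwise 5 per direction. All 13 called genes are named; Uty, Kdm5d and Ssh2 exceed that number. Some genes under this rule are not reported here. Members and lists were chosen with earlier results of these data known. Of 632 list symbols 631 matched. Alternatives were DESeq2 1.42.0, limma-trend 3.58.1, other filters and scalings, a replicate block and leaving out each library. Levels per principal transcript and glial counts without 1 library were added after the data were seen.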

Additional observations from a re-analysis of the deposited data

Results flagged for a closer look

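For each of the 245 genes named with a value, the highest and the lowest of the 4 libraries were compared with the nearest of the others. A library stood apart where that gap, as a share of the whole range, exceeded Dixon's 95% critical value for 4 samples, which chance passes in about 1 in 20 groups. Several genes were taken up because a library stood apart in them, the pituitary genes among them, so the number below cannot be read against that rate. The limit was passed by 28 genes, 19 of them in vehicle F1, 4 in M2, 4 in M1 and 1 in F2.

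In F1 the pituitary hormone genes stood high: Gh at 2729 FPKM (at most 0.709 elsewhere), Pomc at 650.5 (at most 18.8), Cga at 170 (at most 7.04), Prl at 109 (at most 0.0769), Lhb at 29.2 and Fshb at 26.4 (both at a count of 0 elsewhere). The pituitary factor Pou1f1 (1.08) and the receptors Gnrhr (1.59) and Ghrhr (3.06) stood high in the same library, as did the granin Chgb at 195 (122 to 127 elsewhere). The dopamine genes Th at 20.7, Slc6a3 at 11.9, Drd2 at 13.1 and Ddc at 13.1 were also highest in F1. The acute-phase genes Saa1 and Saa2, which encode serum amyloid A proteins, were at 3.41 and 5.23 FPKM in F1 and at most 0.0625 and 0.0901 elsewhere. Ctss, a microglial cathepsin, was high in F1 at 27.8, and P2ry12, a microglial purine receptor, low at 5.28 (7.26 to 7.53 elsewhere). Smim10l1 was low in F1, at 0.264 FPKM against 24.4 to 27.1.

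In M2 the imprinted genes Peg3 and Zdbf2 stood apart in opposite directions, Peg3 at 94.0 FPKM (120 to 124 elsewhere) and Zdbf2 at 8.85 (at most 1.5 elsewhere), and 2 other listed genes overlap Zdbf2. Thrb was low in M2 at 0.614 and Eif3j2 had a count of 0 (3.71 to 4.01 FPKM elsewhere). In M1 the cholinergic transporter gene Slc18a3 was high at 1.40, Glp1r high at 2.70 and the RNA-binding protein gene Hnrnpa3 high at 24.1 (0.212 to 3.19 elsewhere). The microRNA gene Mir8114 was low in M1, at 0.0643 FPKM against 581 to 686. In F2 the neuronal factor gene Neurod1 was high at 1.32. Eif3j2, Hnrnpa3, Mir8114, Smim10l1, Saa1, Saa2, Zdbf2, Slc6a3, Slc18a3 and Thrb were taken up because their libraries differed.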

How the results depend on the processing

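The number of genes called between the sexes depended on the analysis. Against 13 genes in edgeR, 0 were called without the expression filter (1312 genes at an unadjusted p under 0.05), 7 with a mean FPKM of at least 1, 7 with limma-trend on log2(FPKM + 0.1) and 248 with DESeq2. Leaving out 1 library gave 0 to 27. With the replicate block 0 genes were called (871 at an unadjusted p under 0.05); deviations of same-numbered libraries correlated at −0.0614, and the labels tie the numbers to no litter, so the numbers are not taken as pairs. The cause of these differences was not tested. The oligodendrocyte genes higher in males (20 to 21) could not fall in number when a library was left out. The genes at 1 FPKM or more (13499 to 14554) stayed within 1.5 times. At 1 TPM (FPKM rescaled to a common sum) there were 18892. That threshold is lower, as named genes read a median of 3.73 times higher in TPM. The share of the 30 most abundant genes (24.2 to 25.1%) stayed within the spread between libraries. Of the 10 highest peptides, 8 to 10 stayed. Per principal transcript Gal and Cartpt gave way to Tac1 and Tac2 there, and by the mean Cartpt gave way to Pomc. Of 239 named genes with a principal transcript, 57 moved by over 1.5 times in level when divided by its length, by up to 13.3 times for Mbp, whereas TMM scaling moved 0 of 245 by that much; the mean in place of the median moved 14, and leaving out 1 library 19 to 22. Endothelial genes with males higher numbered 14 of 15 without F1, and pan-neuronal ones 4 of 21 without F2 and 2 without F1 or M2, while the share over all genes rose to 31.6 to 34.7% with fewer libraries to separate.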

Other observations

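Some genes were almost switched off in single libraries. Of genes with at least 500 counts in their highest library, 29 had a library at 1% or less of that count: 4 on the Y chromosome, Xist, and 24 others. Of these 24, 17 overlap another gene on the same strand, and in 12 of them the summed CPM of the overlapping genes stayed within 2-fold across the 4 libraries. Where the entry is far below its partner, the sum stays within 2-fold whatever the entry does, so it shows no exchange of counts. Mir8114, for example, overlaps Glul and had counts of 5031, 4305, 1 and 4841 in F1, F2, M1 and M2. Glul, glutamine synthetase, had 56088, 56392, 56309 and 61557. In other pairs the counts were of similar size. The septin entry ENSMUSG00000116048, named Septin2, had counts of 3067, 0, 0 and 4908, and the other entry of that name had 1727, 4595, 4385 and 397. Commd1b had 1231, 0, 883 and 2, and the overlapping B3gnt2 had 363, 1464, 363 and 1495. For Septin2 and Commd1b, a level of 0 for the entry is therefore not a level of 0 for the locus. Hnrnpa3, with 104, 1149, 8039 and 79 counts, and Smim10l1, with 54, 5539, 4881 and 5145, were not made up for by an overlapping gene.

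Outside protein-coding genes, 225 of 5614 long intergenic noncoding RNA genes, 251 of 2959 antisense genes and 958 of 9936 processed pseudogenes reached a median of 1 FPKM. The labels do not say whether counting used strand, so reads of antisense genes and of their partners may not be told apart.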
